A study of Mus musculus with 868 samples.

Results

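The subject is the colon of mice given APAP, the usual short name of acetaminophen, labelled as sampled at 2 hours. The 2 APAP colon libraries were set against 6 other colon libraries, 2 each from the groups Sofosbuvir, sucrose and untreated, out of 36 colon libraries and 868 libraries in the whole series. All animals were C57BL/6N mice, and the series covers 24 tissues and 18 treatment groups with RNA sequencing from the 3′ end of mRNA. Sofosbuvir is an antiviral drug against hepatitis C, the sucrose group received a 5% solution, and the untreated group had no drug. The labels used here give no dose, route, vehicle, age or sex for any of these groups, and a time for APAP only. They do not say that the libraries of a group came from separate mice. A p-value measures only the spread between the libraries within a group, pooled over the groups of a fit, and not the spread between the comparison groups. These 3 groups were taken as the comparison because they belong to the same library set, an assignment that rests on expression values and not on a label. They are called the comparison libraries below, and the 3 values given for them are the lowest, the median and the highest of the 6.

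Acetaminophen is a painkiller and fever reducer that is cleared mainly by conjugation to glucuronic acid and sulphate. A part of it is oxidised to a reactive quinone imine that glutathione traps, and liver injury after an overdose is its best known toxicity. The lining of the colon is a single sheet of cells folded into crypts, in which stem cells and their dividing daughters at the base replace the surface cells within days. Absorptive colonocytes take up water and salt and burn short-chain fatty acids in their mitochondria, and goblet cells secrete the mucus layer. Mouse whole colon also holds a thick smooth muscle coat and connective tissue, whose RNA is measured together with that of the lining.

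The APAP libraries held 1049512 and 962296 counts. Totals ranged from 949202 to 1232349 in the sucrose and Sofosbuvir libraries and were 4652437 and 5015486 in the untreated libraries. At the APAP depth 1 read adds about 1 CPM, the level after scaling counts to a common library size, so genes at a few CPM rest on a few reads. Of 24421 genes, 10751 were tested, and 798 of them (7.42%) passed an adjusted p of 0.05 in edgeR's quasi-likelihood test. In the APAP libraries 380 genes (3.53%) were higher and 418 (3.89%) were lower, and the median log2 fold change of all tested genes was -0.01. Both APAP libraries lay above all 6 comparison libraries for 1019 genes (9.48%) and below them for 1129 genes (10.5%). On the first principal component, with 31.6% of the variance, the APAP libraries lay at -21.6 and -19.4, and the comparison libraries lay between 1.43 and 14.03. With APAP replicate 1 left out 229 genes passed, and with APAP replicate 2 left out 273 passed. Colon epithelium markers summed to 7847 and 7825 CPM in the APAP libraries, against 6941, 7914 and 8475 CPM in the comparison libraries, and all 10 markers were detected.

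**Figure D1:**
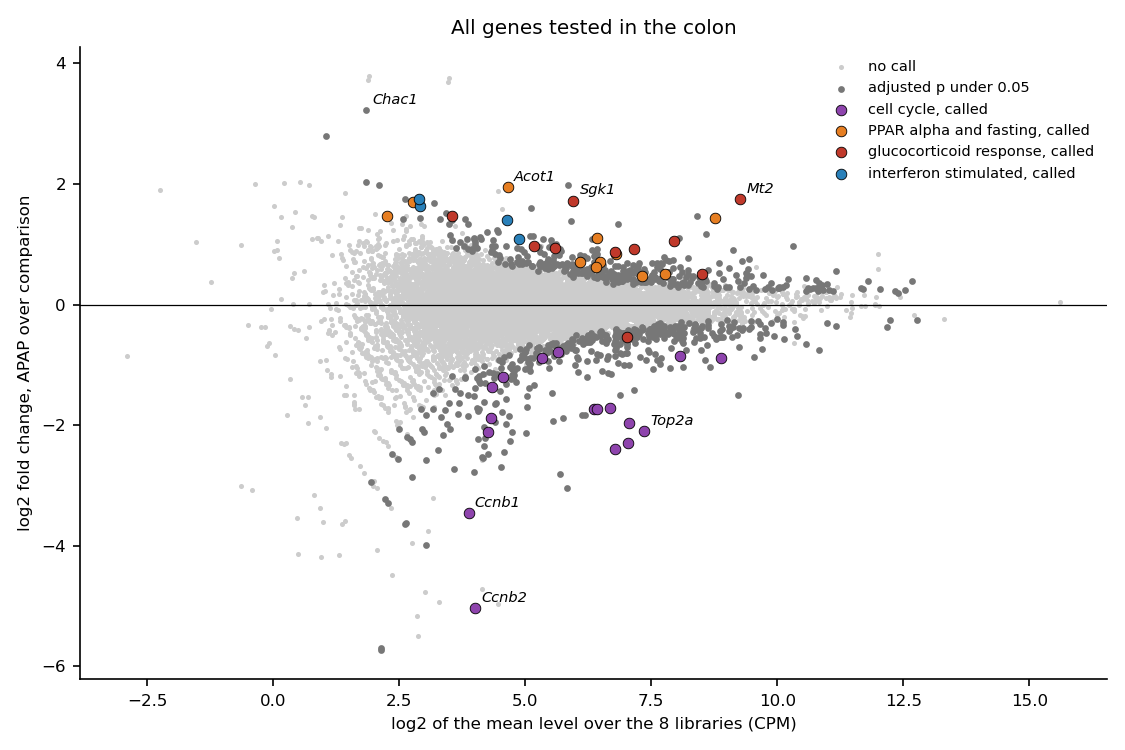
Log2 of the mean level over the 8 libraries (x axis, CPM) against the log2 fold change, APAP over the comparison libraries (y axis), for each tested gene except 1 with no count in these libraries. Light points had no call, dark points are among the 798 called, and coloured points are called members of 4 lists; cell cycle genes lie below 0 and fasting genes above it.

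The comparison groups also differed among themselves. Sofosbuvir against the untreated and sucrose groups gave 453 genes (4.21%), and sucrose against untreated gave 280 genes (2.6%). The Sofosbuvir count was 38 without Sofosbuvir replicate 2, and the sucrose count was 35 without sucrose replicate 1. Of the 798 genes that changed with APAP, 75 were also called with Sofosbuvir and 58 with sucrose, in contrasts that share libraries with the APAP contrast. One comparison library, sucrose replicate 1, carried more transcripts of other tissues. Its pancreatic acinar markers summed to 1631 CPM, against at most 492 CPM in any other library of the 8, and its neutrophil markers to 269 CPM, against at most 114 CPM elsewhere. Without this library 701 genes passed, and the part of these transcripts in single results was not tested.

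Genes of cell division fell. Of 25 cell cycle genes tested, 17 fell and none rose with APAP, where 3.89% of all genes tested fell. Their median log2 fold change was -1.37, and all 25 had a negative sign. Their CPM summed to 830 and 965 in the APAP libraries, against 2024, 2266 and 2397 in the comparison libraries, so the 2 sets did not overlap. In whole tissue, fewer dividing cells and less of these transcripts per cell cannot be told apart. Neither Sofosbuvir nor sucrose moved any of the 25 past the threshold in its own contrast, where 4.21% and 2.6% of all genes passed.

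Most of these were genes of mitosis. Of 14 mitotic genes 12 fell, with a median log2 fold change of -2.03, against 3.89% of all genes called lower. For all 14 both APAP libraries lay below the 6 others, as they did for 10.5% of all genes tested. Plk1 encodes the kinase that drives entry into and passage through mitosis. It had 29.9 and 21.4 CPM in the APAP libraries, against 114.5, 135.4 and 167.2 CPM in the comparison libraries, a log2 fold change of -2.40 ± 0.19 (SE; adjusted p 1.74e-11). Top2a encodes the topoisomerase that untangles sister chromatids. It had 46.4 and 48.4 CPM with APAP, against 147.3, 216.3 and 220.9 CPM in the comparison libraries (-2.10 ± 0.19, adjusted p 5.52e-10). Ube2c, an enzyme of the anaphase-promoting complex pathway that destroys cyclins, had 37.1 and 29.2 CPM with APAP, against 137.1, 169.1 and 187.2 CPM (-2.29 ± 0.21, adjusted p 5.52e-10). The groups were apart in all 3 genes, and the 2 APAP libraries were close to each other.

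Both cyclin B genes were down to a few counts. Ccnb1, a cyclin that activates the mitotic kinase, had 1.03 and 2.25 CPM with APAP, against 11.9, 18.3 and 26.1 CPM in the comparison libraries. This is 3 counts over both APAP libraries and 240 over the 6 others, a depth-corrected ratio of 0.0868 (exact 95% interval 0.0178 to 0.257, counting error only). Its relative Ccnb2 had 1 count with APAP and 277 in the comparison libraries, a ratio of 0.0251 (0.000633 to 0.141). Their kinase partner and genes of the spindle were lower as well. Cdk1, the kinase that both cyclins bind, was at 28.9 and 46.1 CPM with APAP against 97.6, 122.8 and 141.4 CPM (-1.72 ± 0.21). The kinetochore motor gene Cenpe had 5.15 and 12.4 CPM with APAP, against 61.7, 70.7 and 87.0 CPM in the comparison libraries (-3.05 ± 0.34, adjusted p 4.33e-08). Nusap1, which bundles spindle microtubules, stood at 7.21 and 11.2 CPM against 51.4, 66.2 and 82.3 CPM (-2.81 ± 0.35). In each of these genes the higher APAP value stayed below the lowest of the 6. Mki67, the standard proliferation marker, was 33.0 and 25.9 CPM with APAP against 70.8, 99.4 and 129.5 CPM (-1.73 ± 0.25, adjusted p 7.39e-06). The survivin gene Birc5 was 36.1 and 48.4 CPM against 135.8, 160.7 and 196.1 CPM (-1.96 ± 0.20). The 2 APAP libraries were again the lowest of the 8.

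Low-count genes of the same process had no counts at all in the APAP libraries. Nuf2, a kinetochore gene, had 0 counts with APAP and 67 in the comparison libraries, at least 3.22-fold lower on a floor of 3 counts over both APAP libraries. Diap3, a formin that builds actin filaments, had 0 counts with APAP against 64, at least 3.07-fold lower. Both lost their call when either APAP library was left out.

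**Figure D2:**
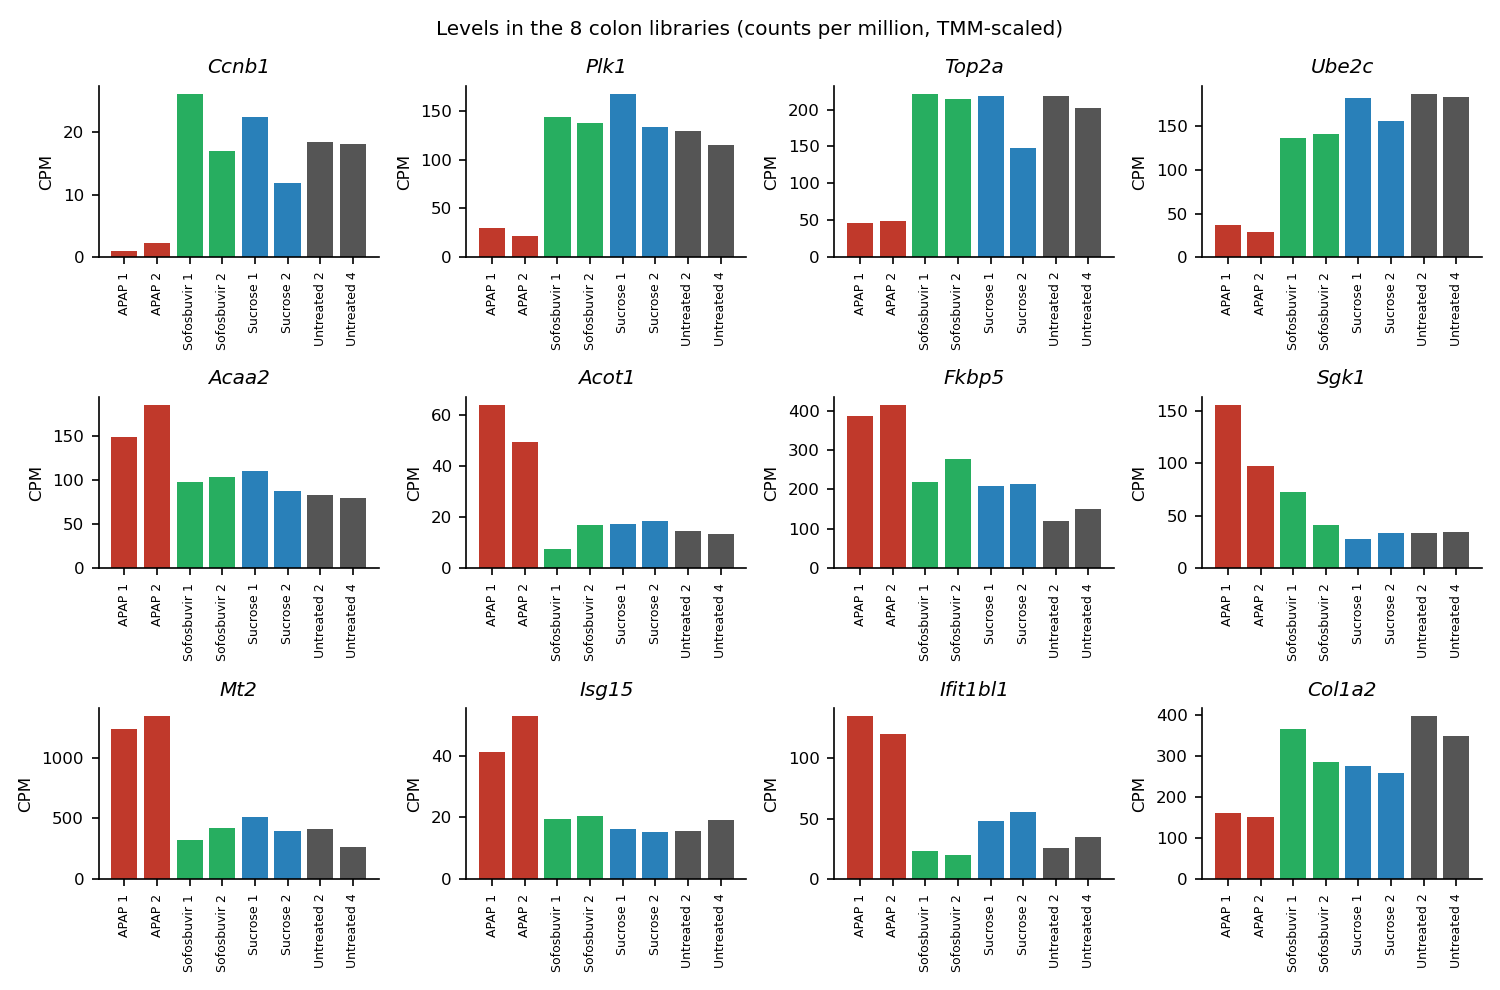
Level of 12 genes (panels) in each of the 8 colon libraries (y axis, CPM from 0, with its own scale in each panel), 1 bar per library, with the 2 APAP libraries at the left. In every panel both APAP bars lie on the same side of all 6 other bars, below them in Ccnb1, Plk1, Top2a, Ube2c and Col1a2 and above them in the others.

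Genes of DNA replication had smaller fold changes. Of 9 replication genes 3 fell, with a median log2 fold change of -0.63, against 3.89% of all genes called lower. For 6 of the 9 both APAP libraries lay below the rest, as they did for 10.5% of all genes tested. The helicase subunit gene Mcm5 had 9.28 and 14.6 CPM with APAP, against 23.8, 26.7 and 33.7 CPM in the comparison libraries (-1.20 ± 0.30, adjusted p 0.00817). Mcm6, of the same helicase, had 27.8 and 37.1 CPM with APAP against 48.2, 54.2 and 66.9 CPM (-0.79 ± 0.20, adjusted p 0.00787). Mcm5, Mcm6 and Mcm2 were chosen for mention after their values were seen. Mcm2 did not pass, with 10.3 and 13.5 CPM against 13.0, 16.7 and 17.8 CPM (-0.45 ± 0.30, adjusted p 0.439), nor did the sliding clamp gene Pcna (-0.39 ± 0.23, adjusted p 0.363). The calls of Mcm5 and Mcm6 were lost without APAP replicate 1. Whether the mitotic and replication genes differ in their fall was not tested.

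Both D-type cyclins tested, which carry growth signals into the cycle, fell. Ccnd1 had 134.0 and 196.8 CPM with APAP, against 235.1, 287.7 and 371.1 CPM in the comparison libraries (-0.86 ± 0.13, adjusted p 1.21e-05). Ccnd2 had 269.0 and 307.0 CPM with APAP against 452.5, 524.8 and 608.7 CPM (-0.88 ± 0.09, adjusted p 1.09e-08). The cyclin-dependent kinase inhibitor gene Cdkn1a, a p53 target that stops the cycle, rose to 221.6 and 219.3 CPM with APAP, against 96.7, 112.9 and 140.9 CPM (0.92 ± 0.13, adjusted p 5.33e-06). Of 19 p53 target genes, 3 rose and none fell, with a median of 0.19, against 3.53% of all genes called higher. The others were Trp53inp1, a cofactor of p53, at 59.8 and 58.5 CPM with APAP against 29.5, 32.8 and 34.5 CPM (0.88 ± 0.18), and the sestrin gene Sesn1 (1.42 ± 0.34). Sesn1 and Trp53inp1 lost the call without APAP replicate 1.

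Markers of crypt stem cells did not pass. None of 8 crypt stem cell genes was called, where 7.42% of all genes tested were, so the lack of calls is not particular to them. Their median log2 fold change was 0.00, and they summed to 745 and 731 CPM with APAP, against 673, 727 and 782 CPM in the comparison libraries. The 2 sets overlapped.

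Promoter sequences of 4 of the mitotic genes are shown because mitotic genes share known promoter elements. The cell cycle homology region (TTTGAA or TTCGAA) binds the complex that represses them outside mitosis, and the CCAAT box is bound by the factor NF-Y. The sequences are RefSeq promoters on build GRCm38.p6, from 250 bases before to 50 after the start, on the gene's strand, with matches on either strand in capitals. Ccnb1 is on chr13:100786437-100786736 (minus strand), Ccnb2 on chr9:70421505-70421804 (minus), Plk1 on chr7:122159185-122159484 (plus) and Ube2c on chr2:164769679-164769978 (plus).
Ccnb1: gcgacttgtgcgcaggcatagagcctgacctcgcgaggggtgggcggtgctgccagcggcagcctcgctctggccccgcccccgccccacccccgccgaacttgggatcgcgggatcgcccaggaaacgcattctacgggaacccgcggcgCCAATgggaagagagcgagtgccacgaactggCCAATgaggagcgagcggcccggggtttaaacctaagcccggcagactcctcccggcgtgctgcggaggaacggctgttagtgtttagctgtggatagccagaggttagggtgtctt
Ccnb2: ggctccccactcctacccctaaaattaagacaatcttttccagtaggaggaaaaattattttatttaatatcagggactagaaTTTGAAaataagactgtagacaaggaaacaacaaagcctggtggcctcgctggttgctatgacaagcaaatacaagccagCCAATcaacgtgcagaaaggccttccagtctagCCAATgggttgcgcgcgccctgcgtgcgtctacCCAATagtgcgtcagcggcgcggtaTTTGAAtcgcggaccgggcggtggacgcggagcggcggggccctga
Plk1: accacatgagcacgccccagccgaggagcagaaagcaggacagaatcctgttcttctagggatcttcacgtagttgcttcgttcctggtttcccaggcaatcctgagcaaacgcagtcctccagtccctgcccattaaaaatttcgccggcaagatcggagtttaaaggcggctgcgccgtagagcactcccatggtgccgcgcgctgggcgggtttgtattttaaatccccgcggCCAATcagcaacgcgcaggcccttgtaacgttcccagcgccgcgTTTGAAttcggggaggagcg
Ube2c: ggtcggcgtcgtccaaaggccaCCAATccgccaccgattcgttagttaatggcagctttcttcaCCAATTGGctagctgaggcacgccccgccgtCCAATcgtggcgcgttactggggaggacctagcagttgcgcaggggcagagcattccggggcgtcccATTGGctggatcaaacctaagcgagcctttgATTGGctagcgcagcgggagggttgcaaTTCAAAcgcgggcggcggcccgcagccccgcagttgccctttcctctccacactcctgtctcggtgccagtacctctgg
Ccnb2 held 2 of the homology matches, Plk1 and Ube2c 1 each and Ccnb1 0 in this window, and CCAAT occurred 2, 3, 1 and 6 times in Ccnb1, Ccnb2, Plk1 and Ube2c. Of the 17 cell cycle genes that fell, 14 had a promoter in the table, 9 of these held the homology region and 13 held CCAAT. Of the 8 without a call, 6 had a promoter, 2 held the homology region and 4 held CCAAT. Among all 32851 promoters of the table the shares were 19.2% and 37.4%, and among the 8254 tested genes with a promoter they were 16.6% and 42.6%. A match of letters is a description and does not show binding.

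Smooth muscle and connective tissue genes were lower with APAP. Of 12 smooth muscle markers 5 fell and none rose, against 3.89% of all genes called lower. These markers summed to 10221 and 10354 CPM with APAP, against 10602, 12894 and 15848 CPM in the comparison libraries. The actin gene Acta2 had 973.9 and 1056 CPM with APAP against 1170, 1416 and 1986 CPM (-0.52 ± 0.11, adjusted p 0.00114). Of 10 fibroblast markers 4 fell and none rose, and they summed to 904.8 and 893.0 CPM with APAP, against 1069, 1257 and 1572 CPM. In both lists the APAP sums were below all others, by a small margin for muscle. The collagen gene Col1a2 had 160.8 and 150.7 CPM with APAP against 259.9, 318.0 and 398.3 CPM (-1.04 ± 0.15, adjusted p 4.38e-06). Col3a1 had 146.3 and 102.3 CPM with APAP against 176.5, 234.0 and 288.3 CPM (-0.89 ± 0.17, adjusted p 0.000525). Without APAP replicate 1 there were 2 smooth muscle and 2 fibroblast calls, and without APAP replicate 2 there were 1 and 2. These sums moved with the same libraries as the cell cycle genes, and their part in the other results was not tested.

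**Figure D3:**
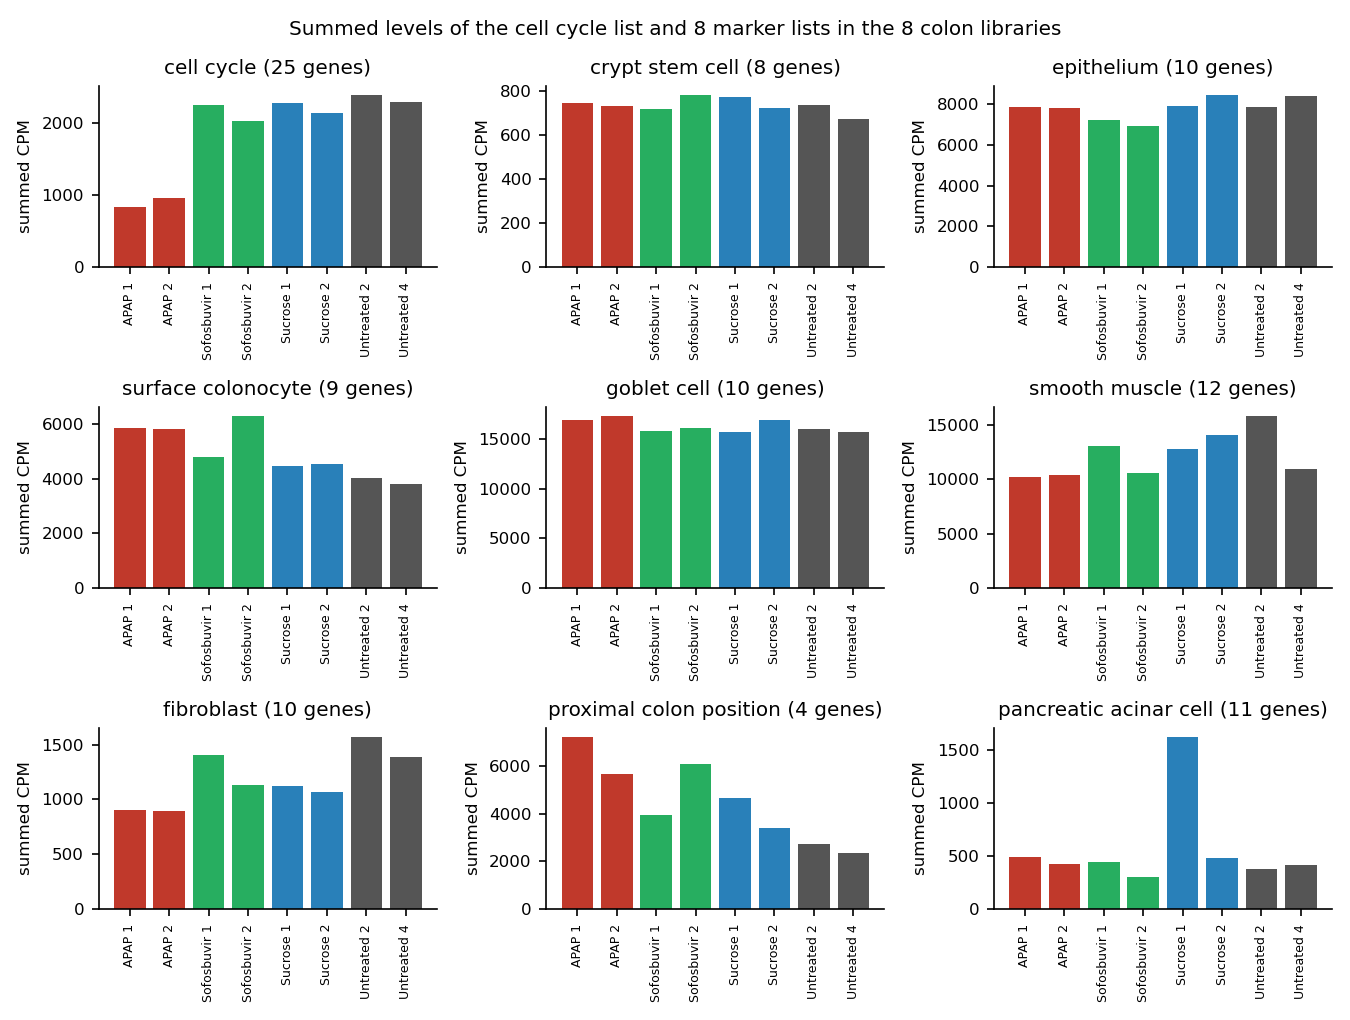
Summed level of 9 gene lists (panels) in each of the 8 colon libraries (y axis, CPM from 0), 1 bar per library, with APAP at the left. The cell cycle, smooth muscle and fibroblast sums of the 2 APAP libraries lie below those of the other 6, the crypt stem cell and epithelium sums overlap them, and the acinar sum stands out in sucrose replicate 1.

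Genes of fatty acid oxidation rose. These are targets of PPAR alpha, the receptor that fatty acids activate during fasting. Of 24 on the list 19 passed the filter on low counts, and of these 11 rose and none fell, with a median log2 fold change of 0.70 and a positive sign in all 19, against 3.53% of all genes called higher. Their CPM summed to 3787 and 3685 with APAP, against 2266, 2392 and 2927 in the comparison libraries, with no overlap. Sofosbuvir and sucrose each had 1 member higher and 1 lower in their own contrasts. Acot1, on chr12:84009490-84018371 (mm10), which frees fatty acids from coenzyme A, had 63.9 and 49.5 CPM with APAP against 7.62, 15.7 and 18.4 CPM (1.95 ± 0.24, adjusted p 3.18e-07). Both APAP values were well above the highest of the 6. Acot1 has a near-identical neighbour, Acot2 (1.47 ± 0.44, adjusted p 0.0307), and how reads were split between them is not given. Angptl4, a secreted inhibitor of lipoprotein lipase, had 13.4 and 14.6 CPM with APAP against 2.55, 4.84 and 5.59 CPM (1.70 ± 0.47, adjusted p 0.0171).

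The enzymes of mitochondrial beta-oxidation rose by smaller amounts. Slc25a20, which carries acylcarnitines into mitochondria, had 168.0 and 114.7 CPM with APAP against 48.7, 67.1 and 81.5 CPM in the comparison libraries (1.11 ± 0.17, adjusted p 2.69e-05). The thiolase gene Acaa2 had 148.4 and 184.4 CPM with APAP against 78.8, 92.8 and 109.3 CPM (0.84 ± 0.14, adjusted p 0.000109). Both subunits of the trifunctional protein rose, Hadha by 0.51 ± 0.11 and Hadhb by 0.70 ± 0.14 on the log2 scale. Acadm, the medium-chain dehydrogenase, had 173.1 and 165.3 CPM against 100.9, 134.1 and 166.4 CPM, overlapped the others and did not pass (0.36 ± 0.12, adjusted p 0.0678). With either APAP library left out, 6 members rose.

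Genes that glucocorticoids induce rose too. Of 17 tested from a list of 18, 9 rose and 1 fell, with a median of 0.87, where 3.53% of all genes were higher and 3.89% lower. The list summed to 3766 and 3942 CPM with APAP, against 2056, 2312 and 2402 CPM in the comparison libraries. Fkbp5, a chaperone of the glucocorticoid receptor and a standard readout of its activity, is on chr17:28399094-28517527. It had 386.5 and 413.9 CPM with APAP, against 119.8, 210.6 and 275.9 CPM (1.06 ± 0.12, adjusted p 3.52e-08). Sgk1, the kinase through which corticosteroids raise sodium uptake, had 155.6 and 97.8 CPM with APAP against 27.9, 33.8 and 72.9 CPM (1.72 ± 0.26, adjusted p 1.17e-05). The groups did not overlap in either gene, and the 2 APAP values of Sgk1 were further apart than those of Fkbp5. Tsc22d3, which encodes the glucocorticoid-induced leucine zipper, had 75.2 and 72.0 CPM with APAP against 23.8, 39.4 and 50.4 CPM (0.93 ± 0.20, adjusted p 0.00221). Ddit4, an inhibitor of mTOR signalling, had 183.4 and 144.0 CPM with APAP against 59.0, 90.1 and 132.4 CPM (0.87 ± 0.14, adjusted p 2.95e-05). The transglutaminase gene Tgm2, named after its value was seen, was the member that fell (-0.54 ± 0.17, adjusted p 0.0402). It had 88.6 and 102.3 CPM with APAP against 89.1, 136.1 and 184.8 CPM, so the groups overlapped. Its call was lost in 11 of 22 alternative settings. Klf9 did not pass (0.30 ± 0.10, adjusted p 0.0658). Several members answer other signals as well: Cdkn1a is also on the p53 list, Mt2 on the metal list and Dusp1 on the immediate early list. Without APAP replicate 1, 6 rises passed. Sofosbuvir and sucrose each had 1 member of this list higher and 1 lower.

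Metallothioneins, small proteins that bind zinc and copper, rose. Mt2 had 1235 and 1344 CPM with APAP, against 263.9, 402.7 and 510.2 CPM in the comparison libraries (1.74 ± 0.17, adjusted p 1.20e-09). Mt1 had 624.5 and 672.5 CPM with APAP, against 193.5, 236.5 and 271.2 CPM (1.47 ± 0.14, adjusted p 1.63e-09). In both genes the APAP values were close to each other and well above the highest comparison library. Of 10 metal-handling genes 3 rose and none fell, with a median of 0.34, against 3.53% of all genes called higher. The third was the ferritin heavy chain gene Fth1 (0.45 ± 0.10, adjusted p 0.00416), whose call was lost when either APAP library was left out. The zinc exporter gene Slc30a1, named after its value was seen, had 60.8 and 75.4 CPM with APAP against 33.1, 46.4 and 57.4 CPM and just missed the threshold (0.56 ± 0.18, adjusted p 0.0528).

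The promoters of both metallothionein genes are shown because they carry the metal response element, the site of the zinc sensor MTF1. It was searched as TGCGCNC or TGCACNC on both strands, and matches are in capitals in the RefSeq promoters on GRCm38.p6. Mt1 is on chr8:94178839-94179138 and Mt2 on chr8:94172368-94172667, both on the plus strand.
Mt1: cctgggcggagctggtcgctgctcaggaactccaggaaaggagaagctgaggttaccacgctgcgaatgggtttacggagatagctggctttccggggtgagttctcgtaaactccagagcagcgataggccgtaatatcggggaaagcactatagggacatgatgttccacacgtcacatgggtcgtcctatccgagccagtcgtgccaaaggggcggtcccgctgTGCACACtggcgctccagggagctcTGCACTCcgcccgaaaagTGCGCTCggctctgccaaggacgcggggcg
Mt2: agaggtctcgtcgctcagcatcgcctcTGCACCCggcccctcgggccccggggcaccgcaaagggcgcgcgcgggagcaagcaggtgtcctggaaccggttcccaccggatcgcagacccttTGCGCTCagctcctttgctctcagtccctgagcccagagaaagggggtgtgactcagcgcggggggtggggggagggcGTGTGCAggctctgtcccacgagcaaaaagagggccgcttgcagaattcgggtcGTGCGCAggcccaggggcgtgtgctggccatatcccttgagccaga
Mt1 held 3 matches and Mt2 held 4. These letters occur in 25.7% of all promoters in the table. Of the 8254 tested genes with a promoter, 40.8% held them in at least 1 promoter, so a match is common. Fth1 had none in this window, and Slc30a1 had at least 1.

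Some interferon-stimulated genes rose, at low levels. Of 13 tested from a list of 18, 4 rose and none fell, with a median of 0.47, against 3.53% of all genes called higher. Isg15, a ubiquitin-like modifier, had 41.2 and 52.9 CPM with APAP, against 15.2, 17.6 and 20.4 CPM in the comparison libraries (1.41 ± 0.31, adjusted p 0.00219). Rsad2, an antiviral enzyme gene, had 51.5 and 46.1 CPM with APAP against 16.3, 23.6 and 29.2 CPM (1.09 ± 0.26, adjusted p 0.00629). Ifit1, which binds foreign RNA caps, had 14.4 and 15.7 CPM with APAP against 2.33, 4.88 and 7.5 CPM (1.64 ± 0.45, adjusted p 0.0175). The groups did not overlap in these genes. Oasl2 rose by 1.75 ± 0.42 on the log2 scale, and Irf7, a regulator of the response, did not pass (0.69 ± 0.26, adjusted p 0.0956). Outside the list Ifit1bl1, a close copy of Ifit1, had 135.0 and 120.3 CPM with APAP, against 19.5, 30.5 and 55.2 CPM (1.99 ± 0.24, adjusted p 2.29e-07). Reads that fit several Ifit copies could be split among them in ways the sources used here do not describe. Without APAP replicate 1 the list had 2 rises, and without APAP replicate 2 it had 0.

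The promoters of Ifit1 (chr19:34640639-34640938, plus strand) and Isg15 (chr4:156200769-156201068, minus strand) are shown for the interferon response element, searched as GAAANNGAA on both strands. Capitals mark matches, some of which overlap each other.
Ifit1: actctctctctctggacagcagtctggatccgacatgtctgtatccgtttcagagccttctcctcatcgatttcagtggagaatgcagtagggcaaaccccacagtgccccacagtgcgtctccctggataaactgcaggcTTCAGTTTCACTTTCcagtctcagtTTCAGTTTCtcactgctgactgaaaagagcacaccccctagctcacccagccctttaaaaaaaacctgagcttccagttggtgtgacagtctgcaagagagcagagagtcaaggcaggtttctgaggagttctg
Isg15: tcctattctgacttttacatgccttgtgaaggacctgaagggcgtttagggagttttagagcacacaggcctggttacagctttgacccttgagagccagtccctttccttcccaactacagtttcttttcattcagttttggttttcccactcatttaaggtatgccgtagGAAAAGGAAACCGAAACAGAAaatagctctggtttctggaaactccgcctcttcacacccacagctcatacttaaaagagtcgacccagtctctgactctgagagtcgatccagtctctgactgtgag
Each held 3 matches. Of the 4 list members that rose, 3 held the element, and of the 7 without a call that had a promoter, 4 held it. The element occurred in 8.56% of all promoters, and 8.64% of the tested genes with a promoter held it in at least 1.

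Some chaperones of the endoplasmic reticulum fell. Of 16 genes of the unfolded protein response 4 fell and 1 rose, with a median of -0.16, where 3.89% of all genes were lower and 3.53% higher. Calr, the lectin chaperone calreticulin, had 382.3 and 440.9 CPM with APAP, against 569.1, 649.1 and 783.5 CPM in the comparison libraries (-0.70 ± 0.11, adjusted p 4.78e-05). Hsp90b1, a relative of the HSP90 chaperones, had 452.4 and 429.6 CPM with APAP against 477.0, 640.9 and 750.0 CPM (-0.50 ± 0.12, adjusted p 0.00493). The other 2 that fell were the disulphide isomerase genes Pdia4 and Pdia6. Hspa5, the main chaperone of the list, overlapped the others and did not pass (-0.20 ± 0.14, adjusted p 0.462). Herpud1, which helps clear misfolded proteins from the reticulum, went the other way, with 442.1 and 433.0 CPM with APAP against 165.4, 198.1 and 248.0 CPM (1.10 ± 0.11, adjusted p 2.98e-09). On the integrated stress response list 1 of 13 tested genes passed, a share near the 7.42% of all genes called. It was Chac1, which degrades glutathione. It had 6.18 and 15.7 CPM with APAP against 0, 1.08 and 2.55 CPM (3.23 ± 0.79, adjusted p 0.00724), and the call was lost without APAP replicate 2. Its upstream factor Atf4 had 351.4 and 373.4 CPM with APAP, against 245.0, 297.4 and 366.1 CPM (0.29 ± 0.10, adjusted p 0.0595). With either APAP library left out, 2 genes of the unfolded protein list fell.

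Targets of NRF2, the factor that turns on genes in answer to electrophiles such as the quinone imine, did not rise past the threshold. Of 16 tested from a list of 18, 3 fell and none rose, with a median of -0.13, against 3.89% of all genes called lower. The quinone reductase gene Nqo1 had 12.4 and 13.5 CPM with APAP, against 25.5, 31.5 and 32.6 CPM in the comparison libraries (-1.24 ± 0.29, adjusted p 0.00392). The gut glutathione peroxidase gene Gpx2 had 105.1 and 127.1 CPM with APAP against 198.3, 238.8 and 254.8 CPM (-0.99 ± 0.18, adjusted p 0.00022). The peroxiredoxin gene Prdx1 fell by 0.30 ± 0.08 on the log2 scale (adjusted p 0.0148). The groups did not overlap in any of these genes, but the list had 0 calls without APAP replicate 1 and 1 without APAP replicate 2.

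Of 22 genes tested from a list of 30 for drug conjugation and transport, 1 rose and none fell, with a median of 0.18, a share near the 3.53% of all genes called higher. Sofosbuvir had 4 of them higher and 1 lower, and sucrose 1 higher. The gene that rose with APAP was Cyp3a13, a cytochrome of the family that oxidises many drugs, with 247.3 and 168.7 CPM with APAP, against 70.7, 75.4 and 124.8 CPM in the comparison libraries (1.34 ± 0.19, adjusted p 4.13e-06). Cyp2e1, the cytochrome best known for oxidising acetaminophen and named after its value was seen, had 158.7 and 144.0 CPM with APAP against 131.6, 152.2 and 211.1 CPM. It overlapped the others and did not pass (-0.09 ± 0.14, adjusted p 0.787). Outside the list Cyp4b1 had 68.0 and 60.7 CPM with APAP against 8.86, 20.6 and 56.0 CPM (1.60 ± 0.30, adjusted p 0.00036), with the highest comparison library close below. That call was lost against sucrose alone and against Sofosbuvir alone. Prostanoids are the pathway whose synthesis the drug inhibits. None of the 13 genes tested from a prostanoid list of 24 was called, where 7.42% of all genes tested were, with a median of -0.08. Ptges3, a prostaglandin E synthase gene, had 125.7 and 122.6 CPM with APAP against 140.4, 153.5 and 190.2 CPM (-0.35 ± 0.12, adjusted p 0.0657).

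**Figure D4:**
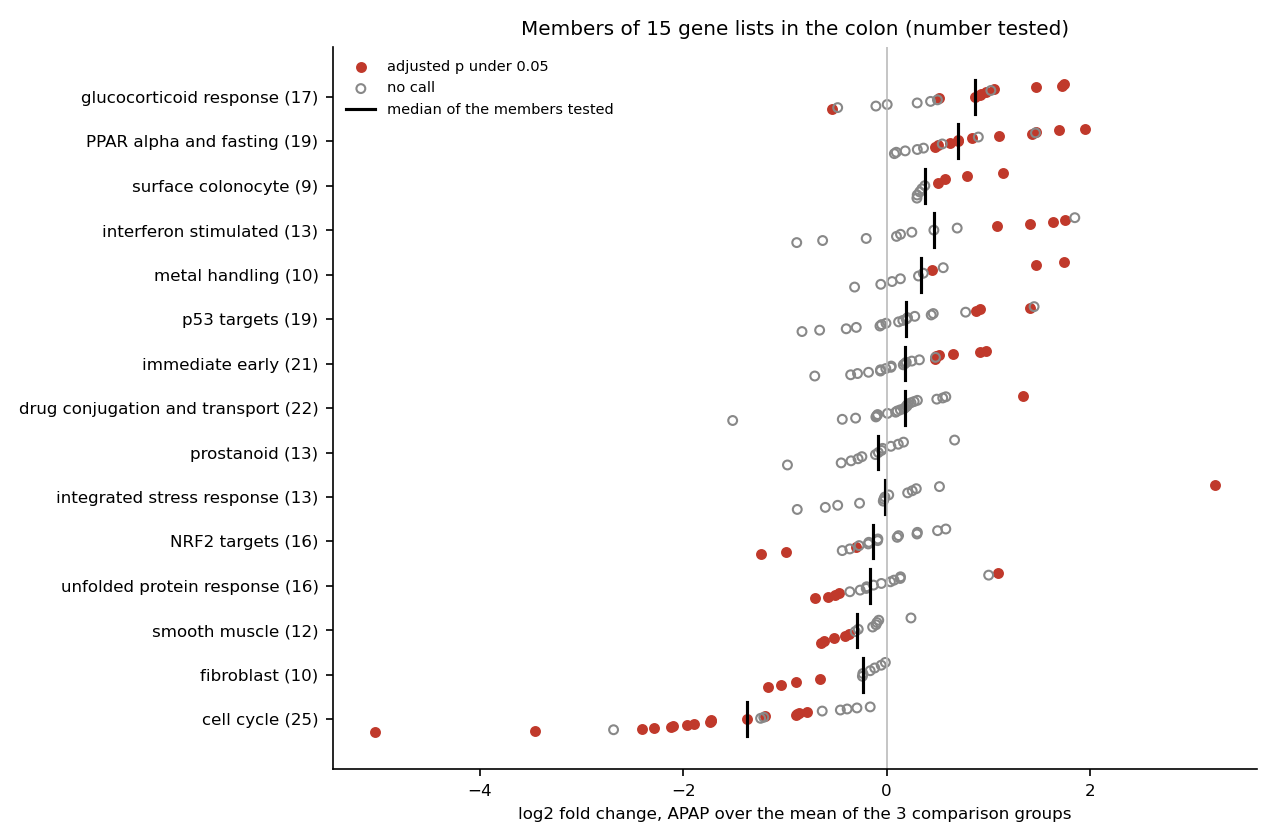
Log2 fold change, APAP over the comparison libraries (x axis), of each tested member of 15 gene lists (rows, with the number tested). Each point is a gene, filled where the adjusted p was under 0.05, and the black bar is the list's median; all members of the cell cycle list lie left of 0 and all of the fasting list right of it.

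Immediate early genes, which answer growth and stress signals within minutes, had small fold changes in the colon at 2 hours. Of 21 tested from a list of 25, 6 rose and none fell, with a median of 0.18, against 3.53% of all genes called higher. Jun, a subunit of the factor AP-1, had 236.0 and 184.4 CPM with APAP, against 125.6, 140.2 and 183.9 CPM in the comparison libraries (0.52 ± 0.15, adjusted p 0.0224). Egr1, a zinc finger factor, had 89.7 and 64.1 CPM with APAP against 27.2, 48.9 and 76.1 CPM, so the groups overlapped (0.65 ± 0.19, adjusted p 0.0252). Fos, named after its value was seen, had 48.4 and 22.5 CPM with APAP against 22.7, 32.2 and 45.2 CPM and did not pass (0.18 ± 0.30, adjusted p 0.797). Dusp1, a phosphatase that shuts off stress kinases, had 62.9 and 51.7 CPM with APAP against 13.1, 32.7 and 38.6 CPM (0.97 ± 0.23, adjusted p 0.00463). Without APAP replicate 1 the list had 0 calls.

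Some genes of mature surface cells rose, and the goblet cell list was mixed. Of 9 surface colonocyte markers 4 rose and none fell, with a median of 0.38, where 3.53% of all genes were higher and 3.89% lower. These markers summed to 5843 and 5841 CPM with APAP, against 3815, 4497 and 6313 CPM in the comparison libraries. Aqp8, a water channel, had 347.3 and 277.8 CPM with APAP against 132.7, 183.8 and 254.5 CPM (0.79 ± 0.18, adjusted p 0.00414). Car4, a carbonic anhydrase, had 445.2 and 341.9 CPM with APAP against 202.9, 274.2 and 317.3 CPM (0.57 ± 0.15, adjusted p 0.0136). The keratin gene Krt20 also rose (0.50 ± 0.13, adjusted p 0.0133), although its values overlapped. Without APAP replicate 1 there was 1 call on this list, and without APAP replicate 2 there were 2. Sofosbuvir had 3 of these genes higher and sucrose 2 in their own contrasts. Markers of the proximal colon summed to 7238 and 5677 CPM with APAP against 2367, 3674 and 6104 CPM, and the part of the sampled position in these results was not tested. Of 10 goblet cell genes 3 rose and 2 fell. Zg16, a mucus lectin, had 7799 and 7985 CPM with APAP against 5283, 6160 and 6529 CPM (0.39 ± 0.12, adjusted p 0.0302). Agr2, the isomerase that folds mucin, had 702.8 and 925.6 CPM with APAP against 1104, 1222 and 1297 CPM (-0.58 ± 0.10, adjusted p 9.07e-05). Members of the mucus machinery thus moved in both directions. Spdef, the goblet cell regulator, had 29.9 and 29.2 CPM with APAP against 42.9, 54.2 and 65.3 CPM (-0.86 ± 0.24, adjusted p 0.02). The mucin gene Muc2 itself did not pass (-0.17 ± 0.09, adjusted p 0.263).

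Of 17 genes of sodium and anion transport, 5 rose and 1 fell, with a median of 0.25, where 3.53% of all genes were higher and 3.89% lower. Besides Sgk1 they included Slc9a2, a sodium-proton exchanger, with 43.3 and 45.0 CPM with APAP against 17.3, 23.4 and 30.5 CPM in the comparison libraries (0.94 ± 0.24, adjusted p 0.00894). Hsd11b2, which shields the mineralocorticoid receptor from glucocorticoids, had 195.8 and 186.7 CPM with APAP against 108.7, 133.0 and 173.4 CPM (0.50 ± 0.14, adjusted p 0.0151). Both lost the call when either APAP library was left out.

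Among the genes with the largest changes that belong to none of these lists, Serpina3n, a secreted protease inhibitor, had 21.6 and 15.7 CPM with APAP, against 2.14, 5.96 and 8.70 CPM in the comparison libraries (1.68 ± 0.42, adjusted p 0.00806). Fst, the activin antagonist follistatin, had 9.28 and 9.0 CPM with APAP against 1.07, 1.87 and 5.94 CPM (1.99 ± 0.61, adjusted p 0.0371). Capn9, a calpain of the digestive tract, had 18.6 and 10.1 CPM with APAP against 0, 5.27 and 7.62 CPM (1.74 ± 0.47, adjusted p 0.0156). All 3 lost the call without APAP replicate 1.

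The ileum is the neighbouring gut segment, and its libraries of the same 4 groups were compared in the same way. The test of the difference asked whether a gene answered APAP differently in the colon, in a joint fit of 16 libraries, and 511 of 10271 genes (4.98%) passed. Without colon APAP replicate 1 or 2 the count was 237 or 252. The division genes fell in both segments: of 24 cell cycle genes, 17 fell in the colon and 17 in the ileum, and 2 differed. Plk1 changed by -2.40 ± 0.19 in the colon and by -2.97 ± 0.20 in the ileum (adjusted p of the difference 0.399). Top2a changed by -2.10 ± 0.17 in the colon and by -1.68 ± 0.15 in the ileum (0.376 for the difference). These differences missed the threshold, which does not show that the responses are alike. In the ileum Plk1 had 17.3 and 26.2 CPM with APAP, against 139.7, 159.6 and 223.7 CPM in the comparison libraries. The 2 that differed were Ccnb2, further down in the colon but at 1 count there (difference -3.96 ± 0.96, adjusted p 0.0126), and Ccnd1, further down in the ileum (-0.86 ± 0.14 in the colon, -1.57 ± 0.14 in the ileum, adjusted p of the difference 0.0274).

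Over all 10271 genes of this fit, 346 rose in the colon and 1475 in the ileum, 366 fell in the colon and 911 in the ileum, and 426 of the 511 differences had the lower fold change in the colon. Several fasting and metal genes shared that direction, which is therefore not particular to them. Marker lists of tissue make-up moved in the ileum too: 9 of 12 smooth muscle and 8 of 10 fibroblast markers fell there, and 5 of 9 epithelium markers rose. In the colon 4 markers of each of the first 2 lists fell, and no epithelium marker was called. The part of tissue make-up in the differences between the segments was not tested. Of 19 fasting genes, 10 rose in the colon and 17 in the ileum, and 6 differed, all with the lower fold change in the colon. Hadha rose by 0.51 ± 0.10 in the colon and by 1.41 ± 0.09 in the ileum, a difference of -0.90 ± 0.14 (adjusted p 0.000122). Its ileum values were 436.9 and 427.8 CPM with APAP, against 119.5, 182.7 and 191.4 CPM in the comparison libraries. The 2 ileum groups were far apart. Mt2 rose by 1.75 ± 0.14 in the colon and by 2.90 ± 0.14 in the ileum (difference -1.15 ± 0.21, adjusted p 0.000973). Sgk1 rose by 1.73 ± 0.22 in the colon and by 2.95 ± 0.21 in the ileum (difference -1.22 ± 0.31, adjusted p 0.0188). Krt20 followed the same order, with 0.50 ± 0.12 in the colon and 1.45 ± 0.11 in the ileum (difference -0.94 ± 0.16, adjusted p 0.000577).

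Other genes changed in the colon without a like change in the ileum. Serpina3n rose by 1.69 ± 0.42 in the colon and fell by 2.62 in the ileum (SE 0.86), a difference of 4.31 ± 0.91 (adjusted p 0.00398). Its ileum values were 0 and 2.76 CPM with APAP against 4.62, 7.92 and 15.5 CPM, so the ileum fold change rests on very few reads. Ifit1bl1 rose by 1.99 ± 0.21 in the colon and had -0.44 ± 0.42 in the ileum, where the groups overlapped (difference 2.43 ± 0.45, adjusted p 0.0012). Calr fell by 0.70 in the colon (SE 0.10) and had -0.01 ± 0.10 in the ileum (adjusted p of the difference 0.0025).

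The liver is the organ that acetaminophen injures, and the fold change of 795 of 10503 genes (7.57%) differed between colon and liver. Of all these genes 289 rose in the colon and 799 in the liver, 337 fell in the colon and 823 in the liver, and the difference was lower in the colon for 433 and higher for 362. Without colon APAP replicate 1 or 2 the count was 451 or 433, and without liver APAP replicate 1 it was 474. Of 20 immediate early genes, 3 rose in the colon and 17 in the liver, and 13 differed, all with the lower fold change in the colon. Jun had a log2 fold change of 0.51 ± 0.15 in the colon, with no call in this fit, and rose by 5.39 ± 0.15 in the liver (difference -4.89 ± 0.23, adjusted p 2.42e-13). In the liver it had 1318 and 983.1 CPM with APAP, against 14.3, 23.9 and 65.6 CPM in the comparison libraries, with a wide gap between the groups. Cdkn1a rose by 0.91 ± 0.16 in the colon and by 4.84 ± 0.23 in the liver (difference -3.93 ± 0.30, adjusted p 4.45e-09). Of 23 cell cycle genes, 17 fell in the colon and 2 in the liver, and 2 differed. Liver levels of these genes were low: Plk1 had 2.76 and 4.54 CPM with APAP against 1.02, 1.63 and 3.30 CPM there (difference -3.46 ± 0.86, adjusted p 0.0127). Some genes of the colon's own response were called in the liver too and some were not. Hadha rose by 0.49 ± 0.10 in the colon and by 0.57 ± 0.09 in the liver (adjusted p of the difference 0.856). Isg15 rose by 1.40 ± 0.23 in the colon and had 0.11 ± 0.23, with no call, in the liver (adjusted p of the difference 0.0109). Mt2 rose by 1.73 ± 0.27 in the colon and by 3.74 ± 0.25 in the liver (difference -2.01 ± 0.40, adjusted p 0.00191), where the comparison libraries spanned 76.7, 358.3 and 7954 CPM. The high values were those of Sofosbuvir, with 5512 and 7954 CPM of Mt2 in the liver, against at most 435 CPM with sucrose or untreated. Mt1 had 1603 and 2201 CPM there with Sofosbuvir, against at most 156 CPM with sucrose or untreated.

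**Figure D5:**
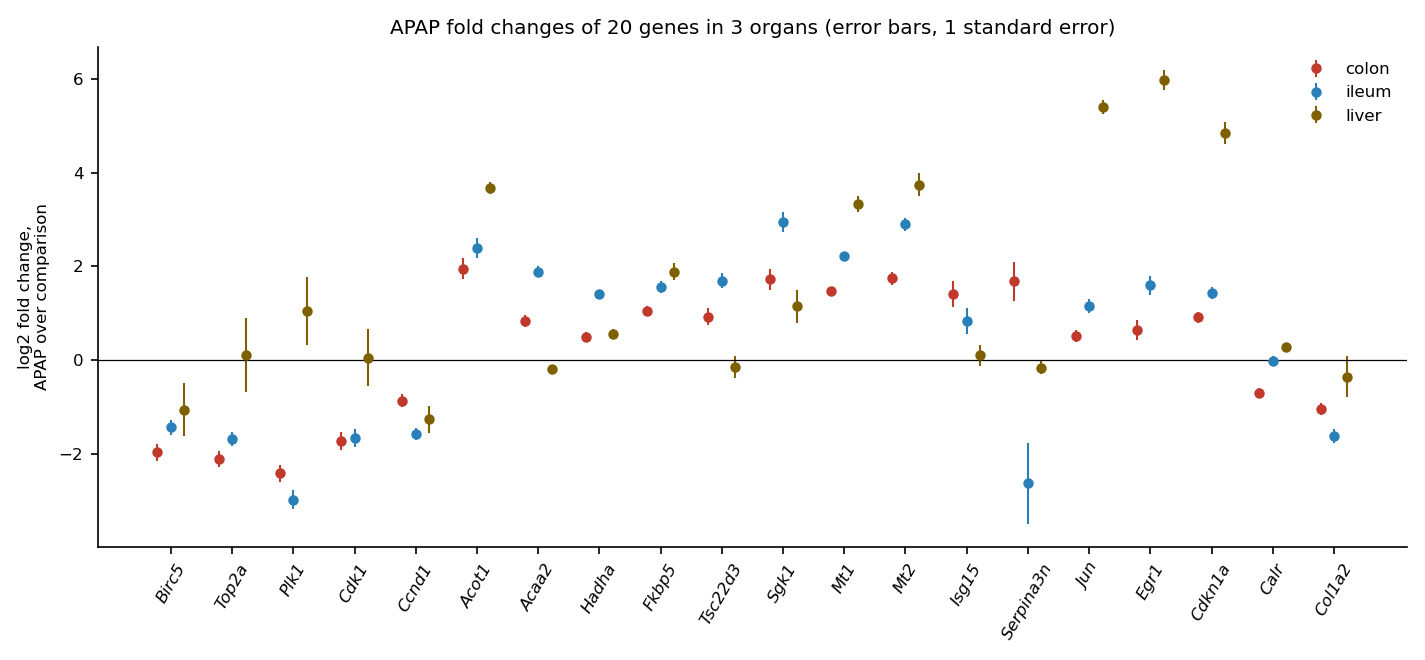
Log2 fold change, APAP over the comparison libraries (y axis), of 20 genes (x axis) in colon, ileum and liver, from the joint fits. Points are estimates and bars are 1 SE on each side; Birc5, Top2a, Plk1 and Cdk1 lie below 0 in colon and ileum, and Jun, Egr1 and Cdkn1a lie highest in liver.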

How the data were processed

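The authors deposited raw read counts per gene, 1 table per tissue with 24421 gene symbols, and the colon, ileum and liver tables were used. Per the submitters' processing notes, bcl2fastq 2.17, TopHat2 2.1.1 and HTSeq 0.9.1 were used with genome build mm10; annotation, read filters and strand setting are not given in the sources used here, so antisense partners and near-identical copies cannot be told apart. The tables hold 0 mitochondrial genes. Gene positions are from GENCODE M21 (23376 symbols matched).

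All 36 colon libraries, 18 groups of 2, entered 1 fit in edgeR 4.0.16 (R 4.3.3): filterByExpr with a minimum count of 10, TMM scaling, and the quasi-likelihood F test with 18 residual degrees of freedom. The contrast was APAP minus the equally weighted mean of Sofosbuvir, sucrose and untreated. P-values were Benjamini-Hochberg adjusted over all genes tested at 0.05, and all adjusted p-values are two-sided. The SE of a log2 fold change is the fold change over the root of F. Levels are CPM, counts scaled to a common library size after TMM, and were not compared between genes. Tissue differences were tested in joint fits of 16 libraries with 8 residual degrees of freedom. Principal components used log2(CPM + 2) of 6794 genes with a mean of at least 20 CPM. Exact intervals and floors cover counting error only. The 2 libraries of a group differed beyond sampling noise (chi-square per degree of freedom 1.25 for APAP, up to 4.09 for untreated). The steps were tested on simulated data.

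The comparison and the 53 gene lists (664 genes) were chosen with earlier results of these data known, and some lists answer several signals. Genes could be named as changed when the adjusted p was under 0.05, the sign was the same against each comparison group, both APAP libraries lay outside the 6 others and a mean reached 5 CPM. That held for 719 genes, of which the 15 largest changes in each direction and up to 8 members per list could be named, with up to 3 members per list that did not pass; some are not reported here, and list counts include them. DESeq2 1.42.0, other scalings, filters and comparison groups, a replicate block and single libraries left out were alternatives.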

Additional observations from a re-analysis of the deposited data

Results flagged for a closer look

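The response to APAP differed between colon and ileum for 511 genes by edgeR's test of the difference, and 15 of the 82 genes that were examined singly and tested there are among them. Each value below is the log2 fold change in the colon minus that in the ileum. Smaller rises in the colon gave negative differences for Sgk1 (-1.22), Mt2 (-1.15), Zg16 (-1.05), Acaa2 (-1.04), Krt20 (-0.94), Hadha (-0.90) and Mt1 (-0.74). Markers of muscle, connective tissue and epithelium also moved in the ileum, and their part in these differences was not tested. The other negative differences were those of Ccnb2 (-3.96, on 1 count in the APAP colon), Muc2 (-0.84), Calr (-0.69) and Prdx1 (-0.47). The fold change was higher in the colon for Serpina3n (4.31), Ifit1bl1 (2.43), Trp53inp1 (0.98) and Ccnd1 (0.71). Ccnd1 fell in both segments, by less in the colon.

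The response differed between colon and liver for 795 genes, 29 of the 83 examined singly among them. Among immediate early and p53 genes the differences, colon minus liver, were -7.43 for Fos, -5.34 for Egr1, -4.89 for Jun, -3.93 for Cdkn1a, -1.99 for Dusp1, -1.96 for Klf6 and -1.47 for Trp53inp1. Among fasting, metal and glucocorticoid genes they were -3.54 for Acot2, -1.73 for Acot1, -1.06 for Acadm, 1.02 for Acaa2, -2.01 for Mt2, -1.87 for Mt1, 0.63 for Fth1, -1.40 for Ddit4 and -0.84 for Fkbp5. In the liver Mt1 and Mt2 were also high in the Sofosbuvir libraries of the comparison. Stress genes of the reticulum gave -1.19 for Hspa5, -1.14 for Hsp90b1, -0.99 for Calr and -0.95 for Atf4. Cell cycle genes gave -7.24 for Ccnb2, again on 1 colon count, and -3.46 for Plk1. The remaining differences were -2.19 for Zg16, -0.88 for Ptges3, 3.46 for Aqp8, 2.09 for Cyp2d9, 1.84 for Serpina3n, 1.69 for Cyp4b1 and 1.29 for Isg15. Zg16 was low in the liver, with 22.1 and 40.8 CPM with APAP against 0, 5.65 and 31.5 CPM. These liver groups overlapped, and the rise of Zg16 in the colon was not called in this joint fit.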

How the results depend on the processing

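The count of 798 genes that changed with APAP lay between 774 and 905 with other scalings, filters, a thinned untreated group and 8 libraries in 4 groups. It was 826 against untreated and sucrose and 679 against Sofosbuvir alone. It was 1310 against untreated alone, 279 against sucrose alone and 427 with DESeq2, of which 418 were shared. With the 8 libraries as 2 groups it was 281, and there the spread between the comparison groups enters the error, unlike in the main fit. Against sucrose and Sofosbuvir, a setting added after seeing the data, it was 576. Leaving out single libraries gave 229 to 819 genes for APAP, 38 to 394 for Sofosbuvir, 35 to 178 for sucrose, 237 to 361 for colon minus ileum and 433 to 590 for colon minus liver. The Sofosbuvir main count was 453, and the sucrose count of 280 fell to 144 with thinned untreated libraries. Of the 798 genes, 1 turned sign against untreated alone, 3 against sucrose alone and 4 against Sofosbuvir alone, and none with the other settings. Fos was at -0.13 against untreated alone, and from -0.48 to 0.61 with single libraries left out; Cyp2e1 was at 0.13 against Sofosbuvir alone. Neither was called. The causes were not tested. Of the cell cycle list 12 to 20 genes fell under every alternative. The replicate block gave 805 genes, 747 of them shared. Same-numbered colon libraries of APAP, sucrose and Sofosbuvir did not deviate together (correlations -0.05 to 0.08 over 6794 genes). That comparison stays within the colon. Whether same-numbered libraries of different tissues came from the same mouse was not tested, and the joint fits treated their 16 libraries as independent. At 962296 and 1049512 counts in the APAP libraries, changes of genes at a few CPM are poorly measured.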

Other observations

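The clock list was examined because glucocorticoids and feeding shift tissue clocks. Of 17 clock genes 2 rose with APAP and none fell, with a median log2 fold change of -0.07, against 3.53% of all genes called higher. As many were called between the comparison groups, with 2 lower with Sofosbuvir and 2 higher with sucrose in their own contrasts. Arntl, a core activator of the clock, had 18.6 and 15.7 CPM with APAP, against 2.2, 8.95 and 10.9 CPM in the comparison libraries (1.42 ± 0.42, edgeR adjusted p 0.0299). Both APAP libraries lay above the 6 others. The call of Arntl was lost without APAP replicate 1 and also without APAP replicate 2. The labels used here give no time of day of sampling, and its part was not tested.

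Of 18 ribosomal protein genes 7 rose and none fell with APAP, with a median of 0.17, against 3.53% of all genes called higher. The 18 genes summed to 38140 and 39695 CPM with APAP, against 31888 to 37089 CPM in the comparison libraries. In their own contrasts Sofosbuvir had 5 of these genes lower and sucrose 3 higher.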
